A study of Mus musculus with 2 samples.

Results

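The genes examined here encode the motors that carry cargo along microtubules in dorsal root ganglion (DRG) neurons of the mouse: kinesins, kinesin light chains, the chains of cytoplasmic dynein, and dynactin. They were taken by symbol, as all genes named Kif or Klc with a number, Dync1 or Dync2, Dynll, Dynlt or Dynlrb, and Dctn1 to Dctn6. The rule found 63 of 24411 genes, represented by 118 of 35034 RefSeq transcript rows. Some rows repeat a RefSeq accession, and all rows are called transcripts below. RNA-seq had been carried out on DRG neurons from C57BL/6J males (C57BL/6 in the labels), 6 to 8 weeks old by the study's methods, that received intraperitoneal alum, an aluminium salt adjuvant, or alum with keyhole limpet hemocyanin (KLH), a foreign protein antigen, on days 0 and 14. Ganglia of the thoracic and lumbar levels were taken 14 days after the second injection, enriched for neurons by centrifugation, and depleted of B lymphocytes with beads. Each group was 1 library made from the pooled neurons of 10 mice, called the alum pool and the KLH pool below. The deposited title of the control calls it both naïve and alum alone, and it is treated here as alum-injected, which is what the methods state. With 1 library a group there are no replicates, so each value below stands without an error between mice, no test was possible, and no difference has a replicate check.

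Kinesins move mostly toward the plus ends of microtubules, which in an axon point away from the cell body, whereas cytoplasmic dynein moves toward the minus ends and needs the dynactin complex to travel far. Sensory neurons depend on both directions, because membrane, mitochondria and protein made in the ganglion must reach nerve endings in the skin and spinal cord, and signalling endosomes must come back. Other kinesins act in the mitotic spindle, and dynein-2 works in primary cilia together with the intraflagellar transport particles.

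Values are TPM, the abundance of a transcript relative to all others, which are scaled per length and add up to 1000000 in each library. TPM was summed over the transcripts of a gene, and a gene above 3 TPM in at least 1 pool was called detected. TPM carries no read counts, so no counting intervals are given. The preparations carried neuronal RNA: all 7 neuronal markers were detected, with a summed level of 14347 TPM in the alum pool and 14263 TPM in the KLH pool. Glial RNA was also present, with 6 of 6 satellite glia markers (1736 and 1613 TPM in the same order) and 5 of 7 Schwann cell markers (1885 and 1856 TPM) above the threshold. Fibroblast markers summed to 85.4 and 85.7 TPM with 3 of 5 detected, and endothelial markers to 10.2 and 7.24 TPM with 1 of 5 detected. None of the 7 macrophage markers (6.65 and 5.80 TPM in sum) or 6 B cell markers (1.55 and 0.999 TPM) was detected, and the B cell marker Cd79b was at 0 in both pools.

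Many transport motor genes were highly expressed in both preparations. Of the 63 genes, 40 were detected, 39 of them in the alum pool and all 40 in the KLH pool, and 23 were not. Among them, 23 of the 40 detected genes (57.5%) were above 100 TPM in both pools, against 18.1% of all 11648 detected genes. The median level of the detected motor genes was 178.9 TPM in the alum pool and 161.9 TPM in the KLH pool, compared with 24.2 and 23.5 TPM over all detected genes. Together the 63 genes made up 1.13% and 1.11% of all TPM. The order of the genes was nearly the same in both preparations, and 9 of the 10 highest were shared. At the top stood Dynlt3, a light chain of dynein, followed by Dynll2, Dync1i2, Kif5c, Kif1b, Kif5b and Kif21a in both pools. At the bottom, Klc3, Kif12 and Kif2b were at 0 TPM in both pools, and the highest gene that missed the threshold was Kif22 at 2.23 and 1.78 TPM.

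**Figure D1:**
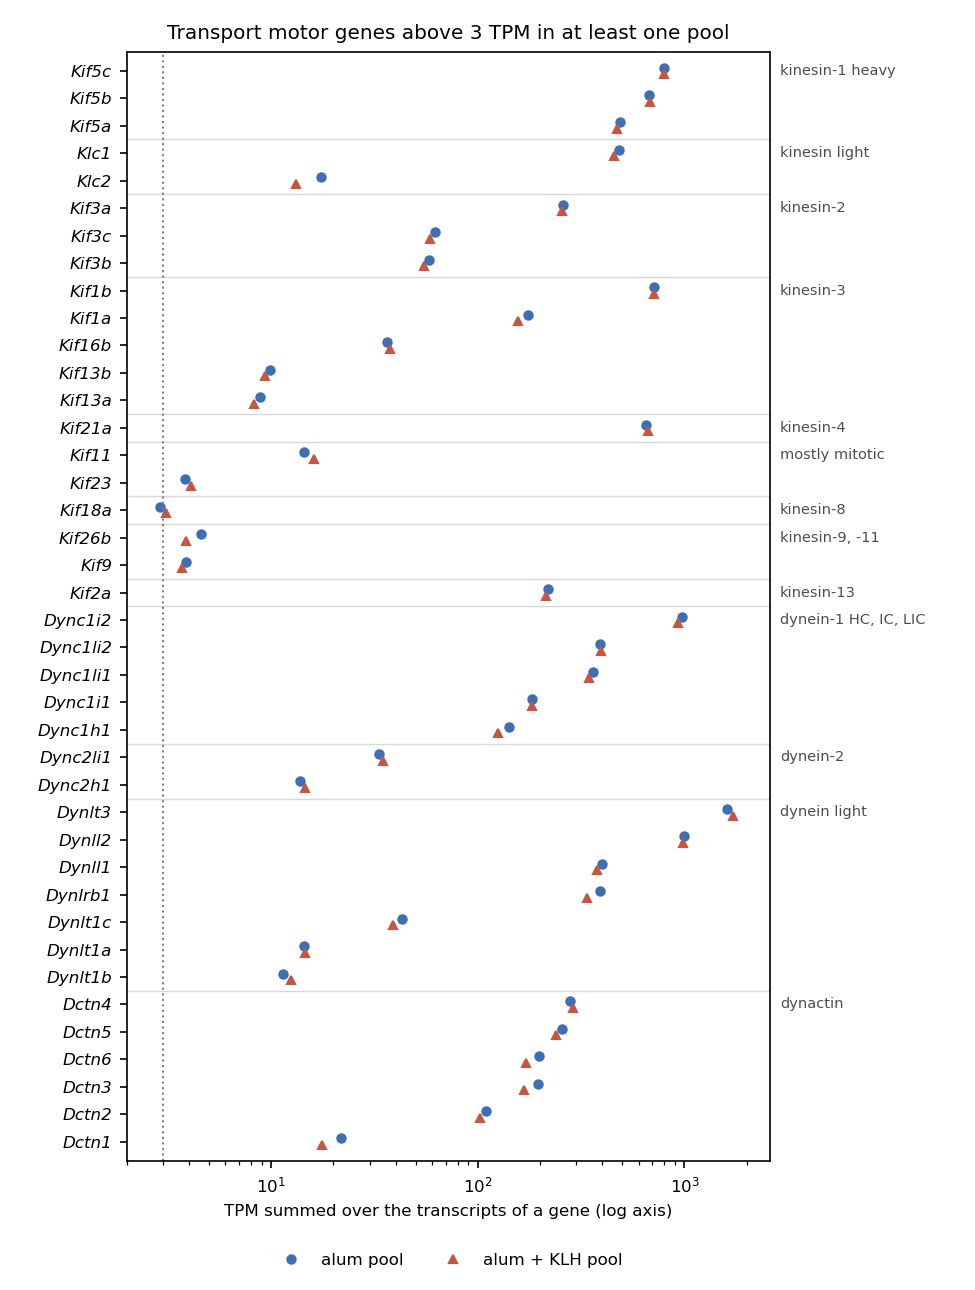
Summed TPM (log axis) of the 40 detected motor genes, grouped by role, in the alum pool (circles) and the KLH pool (triangles), each 1 library of 10 mice. The dotted line marks 3 TPM, HC, IC and LIC stand for heavy, intermediate and light intermediate chains, and the symbols of a gene lie close together over a range from 2.90 to 1722 TPM.

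Between the pools the motor genes differed little, as most detected genes did. Differences are given as the log2 ratio of TPM plus 1, KLH over alum, and were read against how widely the ratio varied (SD) among the 500 genes closest in level. No motor gene was 1.5-fold apart in either direction, 0 of 40, where 2.56% of all detected genes were (1.00% higher and 1.55% lower in the KLH pool). At 2-fold the count was again 0 of 40, against 1.64% of all detected genes. A limit of 1.2-fold, added after the values had been seen, was passed by 2 of 40 genes (5%), Klc2 and Dctn1, both lower in the KLH pool, where 8.41% of all detected genes were lower by as much 3.20% were higher and 11.6% were that far apart in either direction. The ratio lay beyond the SD of the neighbouring genes for 7 of 40 (17.5%), close to the 17.0% of all detected genes. The median ratio was -0.054 over the motor genes and -0.020 over all detected genes, with 25 of the 40 motor genes (62.5%) and 56.4% of all genes lower in the KLH pool. In bulk RNA, fewer cells of a type and less RNA per cell cannot be told apart, and markers were lower in the same pool for 5 of 7 neuronal, 6 of 6 satellite glia and 3 of 5 detected Schwann cell genes, with median ratios of -0.059, -0.043 and -0.057. Their part in the ratios of the motor genes was not tested.

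**Figure D2:**
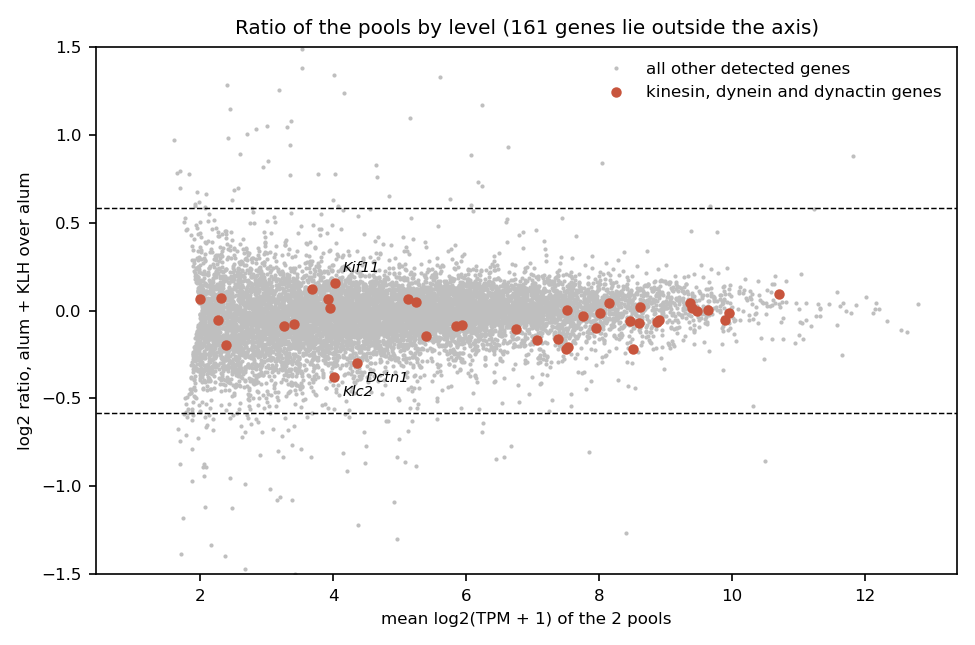
The log2 ratio of the pools (KLH over alum, TPM plus 1) against the mean level on a log2 scale, for the 40 detected motor genes (red) among all detected genes (grey). Dashed lines mark 1.5-fold, which no motor gene crosses; the lowest are Klc2 at -0.38 and Dctn1 at -0.30, the highest is Kif11 at 0.16, and 161 of the other genes lie outside the axis.

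Kinesin-1, the main motor for axonal vesicles and mitochondria, is built of a pair of heavy chains and a pair of light chains, and all 3 heavy chain genes were high. Kif5c, which is enriched in neurons, was at 795.4 TPM in the alum pool and 797.9 TPM in the KLH pool. Kif5b, the widely expressed form, was at 674.7 and 681.2 TPM. Kif5a, the neuronal form mutated in an inherited spastic paraplegia, was at 487.7 and 469.1 TPM. The order Kif5c, Kif5b, Kif5a was kept in both pools, and the ratios of 0.005, 0.014 and -0.056 were all within the SD of genes at the same level (0.15 to 0.16). The light chains, which bind cargo and adaptors, rested on 1 gene. Klc1 was at 479.4 and 457.3 TPM, whereas Klc2 was at 17.3 and 13.1 TPM. Klc4 was below the threshold at 1.41 and 1.24 TPM. Summed heavy chain TPM was 3.93 times the summed light chain TPM in the alum pool and 4.13 times in the KLH pool.

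Klc2 showed the largest difference of all detected motor genes. Its log2 ratio was -0.38, beyond the SD of 0.25 for its neighbours, of which 4.2% were as far from 0. At these low levels, only the highest of its transcripts counted as detected: NM_008451 was at 16.4 and 12.4 TPM. Of the 31-base words of that transcript, 13.03% also occurred in AC124502.1, an annotated antisense gene that overlaps the 5′ end of Klc2. The kit marks strand, but whether the quantification used strand is not given in the sources used here.

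Kinesin-2 carries cargo as heterodimers of KIF3A with KIF3B or KIF3C. Kif3a was at 258.9 and 256.5 TPM, Kif3c at 62.3 and 58.7 TPM, and Kif3b at 58.0 and 54.6 TPM. The common partner was thus at more than the sum of the alternative partners in both pools, and Kif3c and Kif3b stood side by side. Kif17, a homodimeric kinesin-2, was at 0.082 and 0.15 TPM, below the threshold. The ratios ran from -0.086 to -0.013, and that of Kif3a turned to 0.005 when the pools were rescaled by their median ratio. Of the 31-base words of Kif3c, 44.0% were found in other genes, chiefly in the antisense gene 1110002L01Rik that overlaps its 3′ end, so its level is the least certain of this family.

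Kinesin-3 transports synaptic vesicle precursors and dense-core vesicles, and its members differed widely in level. Kif1b was at 711.2 and 710.4 TPM, and Kif1a, the neuronal motor of synaptic vesicle precursors, at 175.2 and 156.7 TPM. Kif16b, an endosome motor, was at 36.4 and 37.7 TPM. Kif1b TPM was thus 4.06 times that of Kif1a in the alum pool and 4.53 times in the KLH pool. Kif1a had a ratio of -0.16, about the SD of its neighbours (0.16), and Kif1b a ratio of -0.002. Kif13b (9.91 and 9.36 TPM) and Kif13a (8.87 and 8.30 TPM) passed the threshold, and Kif1c and Kif14 did not.

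Of the remaining kinesin families, kinesin-4 and kinesin-13 each had 1 high gene. Kif21a, a kinesin-4 that restrains microtubule growth and is mutated in a congenital eye movement disorder, was at 647.7 and 668.2 TPM. Its relative Kif21b was at 0.71 and 0.80 TPM, and Kif27, Kif4 and Kif7 were also below 1 TPM in both pools. Kif2a, a kinesin-13 that depolymerizes microtubule ends, was at 218.5 and 214.3 TPM, while Kif24, Kif2c and Kif2b were below 1 TPM. Kinesin-8, kinesin-9 and kinesin-11 genes were near or under the threshold. Kif26b (4.58 and 3.87 TPM) and Kif9 (3.89 and 3.71 TPM) were above it in both pools, with ratios within the SD of their neighbours. Kif18a, a kinesin-8, was at 2.90 and 3.08 TPM and so was counted as detected in 1 pool only, although its values were nearly the same.

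The group of kinesin-5, kinesin-6, kinesin-7, kinesin-10 and kinesin-12, mostly mitotic families, was low, with 2 of 7 genes detected. It includes Kif12, and kinesins of other families are not counted in it. Kif11, the spindle kinesin-5, was the higher at 14.4 and 16.1 TPM, and its ratio of 0.16 was the highest among the detected motor genes but inside the SD of its neighbours (0.25). Kif23, which acts in cytokinesis, was at 3.85 and 4.09 TPM. Kif22, Kif20a, Kif15 and Kif20b lay between 0.98 and 2.23 TPM. A list of 16 other cell division genes was similarly low, with 7 detected and summed levels of 36.6 and 35.4 TPM. Its 3 highest genes were Prc1, a midzone protein that bundles microtubules, at 6.72 and 7.40 TPM, Birc5 at 6.08 and 6.70 TPM, and Ccna2 at 3.97 and 4.07 TPM.

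Every gene for the heavy, intermediate and light intermediate chains of cytoplasmic dynein-1, the retrograde motor, was above 100 TPM in both pools. Dync1i2, an intermediate chain that links the motor to dynactin, was at 967.5 and 932.6 TPM. Dync1i1, the intermediate chain enriched in neurons, was at 182.5 and 182.6 TPM. Intermediate chain RNA was thus mostly Dync1i2, at 5.30 and 5.11 times the TPM of Dync1i1. The light intermediate chains, which bind cargo adaptors, were close to each other, with Dync1li2 at 388.6 and 394.3 TPM and Dync1li1 at 360.8 and 345.5 TPM. Dync1h1, the heavy chain that holds the motor domain, was the lowest of the 5 at 140.7 and 125.4 TPM. Its ratio of -0.17 lay beyond the SD of its neighbours (0.13), of which 15.4% were as far apart. The summed intermediate chains were at 8.17 and 8.89 times the heavy chain TPM, and the light intermediate chains at 5.32 and 5.90 times.

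Dynein-2, the motor of retrograde transport in cilia, was lower than dynein-1 but detected. Dync2li1, its light intermediate chain, was at 33.2 and 34.8 TPM, and Dync2h1, its heavy chain, at 13.8 and 14.5 TPM, with ratios of 0.068 and 0.066. All 20 genes on a list of intraflagellar transport were detected as well, and none was 1.5-fold apart. Beside a median ratio of -0.020 and 56.4% lower over all detected genes, this list had a median of -0.075, 13 lower and 7 higher. Its highest genes were Ift52 at 75.8 and 85.4 TPM, Ift80 at 74.9 and 72.6 TPM, and Tctex1d2, a dynein-2 light chain, at 67.2 and 67.1 TPM. Axonemal dyneins, which drive motile cilia, were mostly not detected, and 13 of the 15 measured of 21 listed genes were under 3 TPM in both pools. Dnal1 (34.4 and 35.7 TPM) and Dnah7b (3.41 and 3.08 TPM) were the exceptions.

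Dynein light chains held the highest motor genes of all. Dynlt3 was at 1613 TPM in the alum pool and 1722 TPM in the KLH pool, a level that 0.188% and 0.164% of all genes exceeded. Dynll2 was at 995.7 and 985.4 TPM, and Dynll1, the other LC8 light chain, at 397.1 and 378.2 TPM. LC8 also serves as a dimerization hub for many proteins outside the motor, so its level is not a measure of dynein. Dynll2 was at 2.51 and 2.61 times the TPM of Dynll1. The roadblock chain Dynlrb1 was at 391.4 and 336.7 TPM, whereas its relative Dynlrb2 stayed below 1 TPM. The ratio of Dynlrb1 was -0.22, beyond the SD of its neighbours (0.13), of which 5.4% were as far from 0.

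Light chain genes are short and have close copies, which bears on how their reads were divided. The coding sequences of Dynll1 and Dynll2 differed at 50 of 267 bases (81.3% identity), and those of Dynlrb1 and Dynlrb2 at 81 of 288 (71.9% identity). The stretch of Dynll1 and Dynll2 from coding base 26 to 85 is shown, chosen as 60 bases with the most differences. The 15 bases that differ are in capitals, taken from GENCODE M21 transcripts of GRCm38.
Dynll1: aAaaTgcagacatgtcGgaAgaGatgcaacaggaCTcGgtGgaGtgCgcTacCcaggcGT
Dynll2: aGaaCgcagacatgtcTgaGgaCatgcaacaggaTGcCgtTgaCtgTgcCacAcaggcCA
The Tctex-type genes on chromosome 17 were a different case. Dynlt1a, Dynlt1c and Dynlt1f had identical coding sequences of 339 bases, and Dynlt1b differed from them at 1 base, printed in capitals within the first 60 coding bases because it is the single coding difference of the 4 genes.
Dynlt1a, Dynlt1c and Dynlt1f: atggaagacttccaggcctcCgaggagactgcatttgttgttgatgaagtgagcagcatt
Dynlt1b: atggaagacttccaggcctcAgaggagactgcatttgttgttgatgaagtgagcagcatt
They lie at chr17:6306340-6317500 (Dynlt1a), chr17:6430112-6436296 (Dynlt1b), chr17:6601671-6609774 (Dynlt1c) and chr17:6646602-6655900 (Dynlt1f). Between 76.6% and 96.01% of their 31-base words occurred in other genes. The split of TPM among them is therefore uncertain, and the deposited values were 43.1 and 38.9 TPM for Dynlt1c, 14.4 and 14.6 TPM for Dynlt1a, 11.3 and 12.4 TPM for Dynlt1b, and 1.09 and 0.46 TPM for Dynlt1f. Their sum was 69.9 TPM in the alum pool and 66.4 TPM in the KLH pool, so that Dynlt3 was at 23.1 and 25.9 times the sum of its relatives. The ratio of Dynlt1c, -0.14, passed the SD of its neighbours (0.11), but this gene is the one whose words were most shared.

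Dynactin, the cofactor that makes dynein processive and couples it to cargo, was the group with the lowest median ratio among groups with over 2 detected genes. All 6 genes were detected and 5 were lower in the KLH pool, with a median ratio of -0.16 beside -0.020 for all detected genes. Dctn4, which belongs to the pointed-end part of the complex, was at 279.5 and 288.2 TPM and was the exception. Dctn5 and Dctn6, also of the pointed end, were at 256.1 and 239.3 TPM and at 198.7 and 171.9 TPM. Dctn3, of the shoulder that projects from the filament, was at 194.5 and 167.0 TPM, and Dctn2, the dynamitin of the shoulder, at 110.0 and 102.4 TPM. Dctn1, the p150Glued arm that binds microtubules and dynein, was the lowest at 21.8 and 17.5 TPM. Dctn1, Dctn3 and Dctn6 had ratios of -0.30, -0.22 and -0.21, each beyond the SD of the neighbours (0.18, 0.16 and 0.16), of which 6.4%, 5.2% and 6.8% were as far apart. These counts, 5 of 6 lower and 3 of 6 beyond the SD, stand beside 56.4% and 17.0% of all detected genes, and the group is described after its values were seen. None reached 1.5-fold. The summed dynactin TPM was 1061 in the alum pool and 986.3 in the KLH pool, and the TPM of Dctn4 exceeded that of Dctn1 12.8 times and 16.4 times.

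Subunits that the symbol rule leaves out lay on both sides of 0. In a list of 13 such genes, 12 were measured and 9 detected, with 5 lower, 4 higher and a median ratio of -0.033. The actin-capping subunit Capza2 was at 883.0 and 923.3 TPM, the kinesin-2 accessory subunit Kifap3 at 620.6 and 640.2 TPM, and Capza1 at 269.7 and 271.1 TPM. Of the actin-related dynactin genes outside the rule, Actr1a was at 191.5 and 187.1 TPM, Actr1b at 93.3 and 80.4 TPM, and Actr10 at 172.5 and 183.5 TPM. Their ratios were -0.033, -0.21 and 0.089 in the same order. That of Actr1b lay beyond the SD of its neighbours (0.13), of which 8.4% were as far from 0. These genes were chosen for naming after their values were seen.

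Adaptors and regulators of the motors were mostly detected, 28 of the 33 measured of 35 listed genes, with a median ratio of -0.038, 16 lower and 12 higher. Pafah1b1, which encodes the dynein regulator LIS1, was at 1589 and 1635 TPM, Fez1, a kinesin-1 adaptor, at 650.4 and 642.8 TPM, and Arl8b, the GTPase that links lysosomes to kinesins, at 560.8 and 585.9 TPM. No gene on the list was 1.5-fold apart. Nin, a dynein adaptor at the centrosome, came nearest at 16.2 and 24.0 TPM, a ratio of 0.54. Lower in the KLH pool by 1.2-fold or more were 3 genes, of which Mapk8ip2, a kinesin-1 scaffold, had 30.7 and 22.7 TPM, Arl8a 273.5 and 220.9 TPM, and Rhot2, a mitochondrial GTPase, 9.65 and 7.87 TPM, beside 8.41% of all detected genes that were lower by as much. Nin and these 3 genes were named after the values were seen. Of 24 microtubule-associated genes 23 were detected, 17 lower and 6 higher, with a median ratio of -0.059. Beside these counts and those of the adaptors, 56.4% of all detected genes were lower, with a median ratio of -0.020. Map1b was at 2591 and 2533 TPM, Stmn2 at 2496 and 2446 TPM, and Map7d2, a relative of the kinesin-1 cofactor MAP7, at 1017 and 1032 TPM. None was 1.5-fold apart.

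Several motor genes make transcripts that differ in coding exons, and the deposited rows give TPM for each transcript. Of the 118 transcripts 67 were above 3 TPM in at least 1 pool, and 9 were at 0 in both. At 1.5-fold, 5 of the 67 (7.46%) were apart, 3 higher and 2 lower in the KLH pool, beside 8.51% of all 14215 detected transcripts (3.50% higher and 5.01% lower), and at 2-fold 4 of 67 (5.97%) beside 4.65%. More were beyond the SD of their neighbours, 19 of 67 (28.4%) beside 17.6% of all. The reads of a gene are divided among its transcripts, so a shift within a gene can count in several of them. Motor genes also had more transcripts each, 118 for 63 genes beside 35034 for all 24411 genes. Among 18 genes with several transcripts and over 3 TPM in both pools, the leading transcript (highest by mean of both pools) shifted by over 20 percentage points of the gene total in 0, and by 11.2 points at most, in Dync1i1. A single transcript held more than 90% of the gene in both pools for 8 of the 18. Among the highest genes with several transcripts, these were Dynll2 with 99.5% in each pool, Kif1b with 97.4% and 97.5%, Kif5a with 99.9% in each, and Dynlrb1 with 99.9% and 92.3%.

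**Figure D3:**
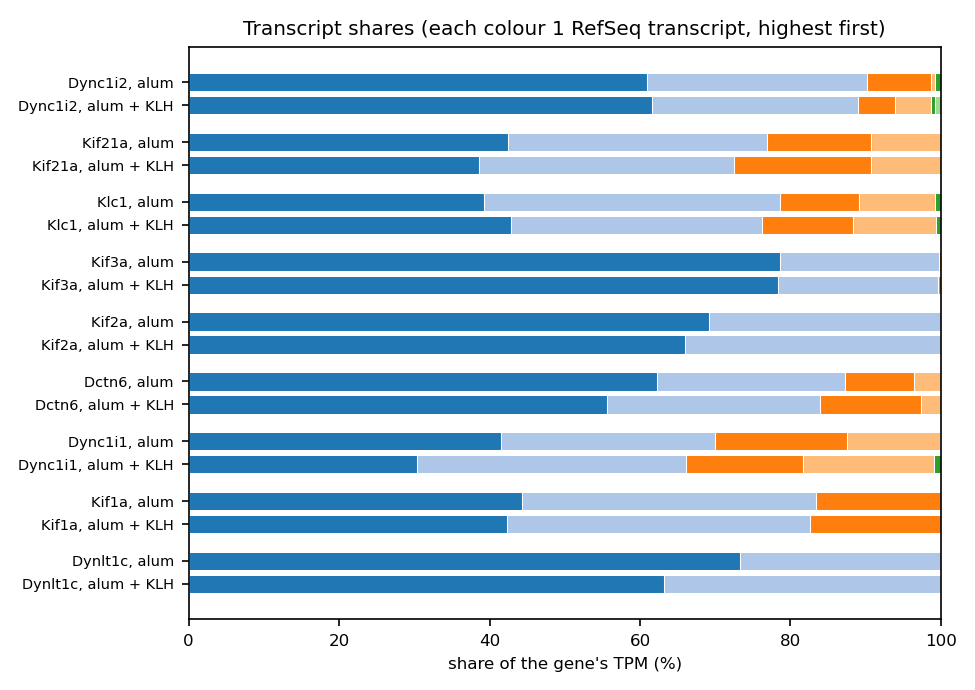
Share of the gene's TPM (%) held by each RefSeq transcript in the alum pool (upper bar) and the KLH pool (lower bar) for 9 motor genes whose TPM was divided among transcripts, each colour 1 transcript in the order of its mean. The first segment of Dync1i1 takes 41.5% and 30.3%, and that of Kif3a 78.6% and 78.4%. The rows of Dynlt1c repeat the accession NM_001166630 and are not different transcripts.

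The transcripts that were 1.5-fold apart belonged to Dync1i2, Dynlrb1 and Dctn2. In Dync1i2 the transcript NM_001198872 was at 5.74 TPM in the alum pool and 44.7 TPM in the KLH pool (ratio 2.76). NM_001198877 of the same gene was at 82.7 and 45.5 TPM (ratio -0.85), and NM_010064 at 5.5e-09 and 7.61 TPM. The higher value of one and the lower value of the other nearly cancelled, and the leading NM_001198874 held 61.0% and 61.6% of the gene, whose total had a ratio of -0.053. Dync1i2 transcripts differ by coding exons of 18 and 60 bases, among others, which are shown because this gene held 3 of the 5 transcripts past 1.5-fold. They lie on the plus strand at chr2:71227827-71227844 and chr2:71233649-71233708 (GRCm38), with 15 bases of each adjoining exon in lower case.
Dync1i2 exon of 18 bases: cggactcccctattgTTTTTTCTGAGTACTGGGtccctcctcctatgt
Dync1i2 exon of 60 bases: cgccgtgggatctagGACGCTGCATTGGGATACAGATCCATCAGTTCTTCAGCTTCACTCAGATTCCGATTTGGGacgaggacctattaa
Some RefSeq rows of Dync1i2 are paired with the same GENCODE transcript, so TPM was not summed over these exons. The transcripts paired with NM_001198872 and NM_001198877 both had 18 exons and 1914 coding bases. The printed exons are thus not shown to tell those rows apart.

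In Dynlrb1 the coding NM_025947 was at 391.2 and 310.8 TPM, and the row NR_111891, annotated as noncoding, at 7.4e-05 and 25.9 TPM (ratio 4.75). These rows account for the share of the leading transcript moving from 99.9% to 92.3%. In GENCODE their paired transcripts differ at the start of exon 2 by 4 bases (chr2:155242731-155242734, plus strand), given in capitals in the junction of exons 1 and 2, 13 bases on each side.
Dynlrb1 NM_025947: tccgtccgagatgGCAGaggtggaggaaac
Dynlrb1 NR_111891: tccgtccgagatgaggtggaggaaac
The sum of both rows was still lower in the KLH pool, as the gene total was. The fifth transcript past 1.5-fold was NM_027151 of Dctn2, at 3.36 and 0.90 TPM beside 106.7 and 101.5 TPM for NM_001190453, which is paired with the same GENCODE transcript. The ratio of NM_027151, -1.20, lay within the SD of the neighbouring transcripts (1.93), of which 63.4% were as far from 0. The ratios of NM_001198872, NM_001198877, NM_010064 and NR_111891 lay beyond the SD of theirs (0.28, 0.17, 1.88 and 0.58).

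Smaller shifts were seen in other genes. Dync1i1 had NM_001191023 at 75.8 and 55.4 TPM, NM_001191027 at 52.0 and 65.4 TPM and NM_010063 at 22.5 and 31.8 TPM, while its total was 182.5 and 182.6 TPM. By its highest transcript alone this gene would have had a ratio of -0.44 in place of 0.001. Klc1 was led by a pair of transcripts, NM_008450 at 188.7 and 153.0 TPM and NM_001025363 at 188.4 and 195.7 TPM, with 3 of its 8 rows at 0. Both of these Klc1 rows are paired with the same GENCODE transcript, as are NM_001191023 and NM_001191027 of Dync1i1. The annotation used here therefore does not tell the rows of either pair apart. Dctn6 had NM_011722 at 123.7 and 95.5 TPM, which is 62.3% and 55.6% of the gene, and NM_001293758 at 49.5 and 48.7 TPM. The total of Dctn6 was lower in the KLH pool, mainly in this leading transcript.

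For 7 genes whose rows each pair with a GENCODE transcript of their own, 18 coding exons differed between transcripts, and TPM could be summed over the rows with and without each. The exons and these genes were chosen after values had been seen. All 18 were multiples of 3 bases, so that the reading frame is kept with or without them, and 11 were 27 bases or shorter. Shares of TPM with the exon differed by at most 4.34 percentage points between the pools. These shares are sums over whole transcripts, which can also differ outside the exon. The transcripts paired with Kif1a, for example, were 5097 to 8206 bases long, and those of Kif2a 5304 and 3533 bases. A share is therefore not a direct measure of how often the exon was included.

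Dctn1 stood at one end. Its exons 5 to 7, together 60 bases that encode a basic stretch beside the microtubule-binding domain of p150Glued, and exon 27 of 15 bases were on rows with 21.8 TPM in the alum pool and 17.5 TPM in the KLH pool. The row that lacks all 4, NM_001198867, was at 2.4e-04 and 0 TPM. Exons 5 to 7 lie within chr6:83183936-83187784 and exon 27 at chr6:83197319-83197333, plus strand of GRCm38, and they are printed because nearly all Dctn1 TPM was on transcripts that hold them, with the exons in capitals.
Dctn1 exons 5 to 7: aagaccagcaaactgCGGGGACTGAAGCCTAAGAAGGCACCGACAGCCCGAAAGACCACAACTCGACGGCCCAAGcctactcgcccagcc
Dctn1 exon 27: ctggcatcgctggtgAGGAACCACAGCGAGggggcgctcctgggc
Dctn3 was alike, with 99.98% and 99.5% of its TPM on the row with an exon of 60 bases at chr4:41715396-41715455.

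Kif1b was also nearly uniform, with 97.4% and 97.5% of TPM on the transcript that holds exons of 18 bases (chr4:149265345-149265362) and 42 bases (chr4:149261160-149261201). Both exons lie on the minus strand and are shown because they mark the form that led in both pools.
Kif1b exon of 18 bases: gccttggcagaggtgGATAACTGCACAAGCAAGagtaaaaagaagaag
Kif1b exon of 42 bases: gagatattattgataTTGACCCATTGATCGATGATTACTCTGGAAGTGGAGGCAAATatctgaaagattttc
The short Kif1b transcript NM_008441, which encodes another, shorter tail (3450 against 5448 coding bases), was at 12.4 and 11.8 TPM. Kif1a, in contrast, was divided. An exon of 27 bases at chr1:93065552-93065578 was on 44.3% and 42.3% of its TPM. Farther along, another of 27 bases (chr1:93034546-93034572) was on 39.0% and 40.2%, and one of 24 bases (chr1:93026832-93026855) on 16.7% and 17.5%. The latter exons follow the same bases and precede the same bases, and no measured transcript holds both.
Kif1a exon of 27 bases at 93065552: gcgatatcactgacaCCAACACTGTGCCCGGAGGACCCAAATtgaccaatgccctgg
Kif1a exon of 27 bases at 93034546: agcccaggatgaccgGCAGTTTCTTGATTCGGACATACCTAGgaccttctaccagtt
Kif1a exon of 24 bases at 93026832: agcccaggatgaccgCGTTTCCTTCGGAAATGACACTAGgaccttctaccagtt

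Kif3a and Kif2a each had a minor form. A Kif3a exon of 9 bases (chr11:53590717-53590725, plus strand) was on 21.4% and 21.6% of its TPM, and a Kif2a exon of 114 bases (chr13:106969704-106969817, minus strand) on 30.8% and 34.0%. The former is shown as the shortest of the 18 exons.
Kif3a exon of 9 bases: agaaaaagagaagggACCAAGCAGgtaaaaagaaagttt
Of the 31-base words of the Kif2a transcript without the exon, 24.4% were found in other genes, chiefly in the overlapping Dimt1, so the Kif2a share is less certain.

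Kif21a had the most such exons of the 7 genes, 6 of 15 to 129 bases. The exon with the largest shift of the 18, of 39 bases (chr15:90949006-90949044, minus strand), was on 86.1% of TPM in the alum pool and 81.8% in the KLH pool, and one of 21 bases (chr15:90964975-90964995) on 57.6% and 61.4%. These shifts come from the rows NM_001109042, at 90.02 and 121.9 TPM, and NM_016705, at 274.6 and 257.8 TPM. The remaining 4 exons were on 9.24% to 43.7% of TPM and moved by less than 1 point. The pair with the larger shifts is shown.
Kif21a exon of 39 bases: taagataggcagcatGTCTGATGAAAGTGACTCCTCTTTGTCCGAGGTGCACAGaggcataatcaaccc
Kif21a exon of 21 bases: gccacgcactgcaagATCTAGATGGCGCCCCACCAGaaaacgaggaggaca

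**Figure D4:**
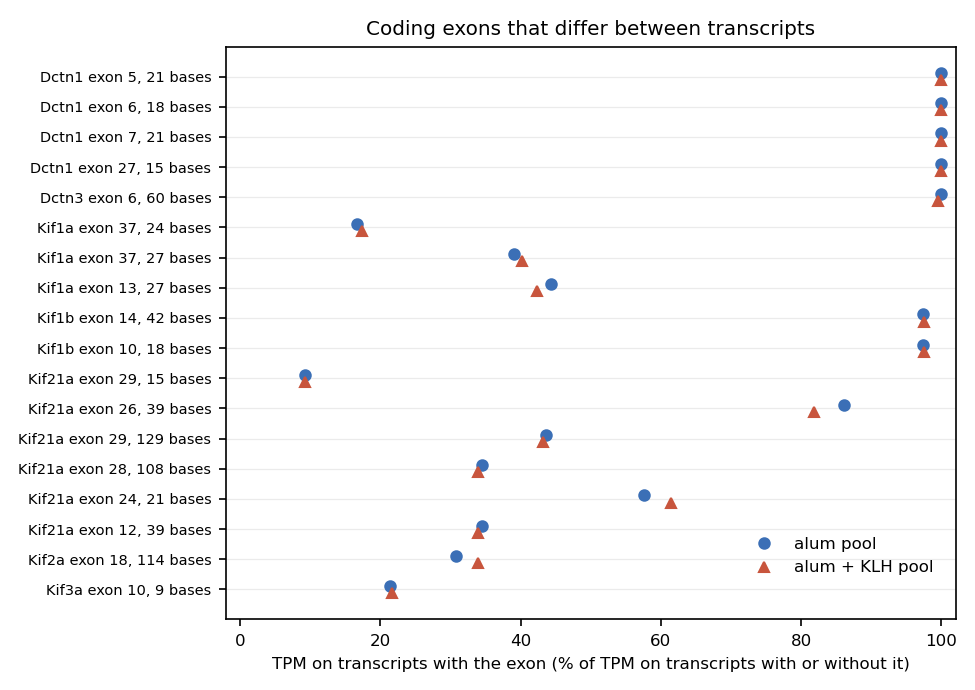
Percent of a gene's TPM on transcripts with each of the 18 coding exons that differ between transcripts, in the alum pool (circles) and the KLH pool (triangles). Exons are numbered along a transcript that holds each, and the symbols of an exon lie at most 4.34 points apart, in Kif21a.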

How the data were processed

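RNA of DRG neurons from 20 mice in 2 pools was sequenced. The authors made TruSeq stranded mRNA libraries and deposited TPM per RefSeq transcript, scaled to 1000000 over each library. The submitters' processing notes name bcl2fastq, cutadapt, kallisto and the mm10 build. The study's methods state a minimum depth per sample, but TPM holds no read counts, so counting intervals were not computed.

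TPM was summed by symbol, and log2 ratios used a pseudocount of 1 TPM and a threshold of 3 TPM. Ratios were set beside the SD over the 500 genes closest in level. Named were the 3 highest genes of each role or pathway list, genes 1.5-fold apart, the 10 highest genes with several transcripts, and others where stated. Members, roles, lists and markers were chosen with earlier results of these data known. Exons and 31-base words came from GENCODE M21 transcripts (GRCm38, the assembly of mm10), and all 118 rows had a RefSeq pairing there. Sequence from chromosome 18 and protein sequences were not used here, and 1 marker gene is not reported by name. Alternatives were other thresholds and pseudocounts, the highest transcript, median-ratio rescaling, removal of small RNA rows, merged Dynlt1 genes, and transcript shares with 1 TPM added. Fold calls and the neighbour SD were tested on simulated data. Python 3.11.15, numpy 2.4.6, pandas 2.3.3, scipy 1.17.1 and matplotlib 3.10.9 were used.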

Additional observations from a re-analysis of the deposited data

How the results depend on the processing

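Counts were held to 1.5 times, and ratios to the SD of neighbouring genes. The counts that moved depended on the threshold for detection. With no filter, 59 motor genes were above 0 in the alum pool in place of 39, the mostly mitotic kinesins counted 6 in place of 2, kinesin-4 counted 5, kinesin-8 3, kinesin-9 and kinesin-11 4, and kinesin-13 3. At 1 TPM the mostly mitotic kinesins counted 6. At 10 TPM they counted 1, kinesin-3 counted 3 in place of 5, and kinesin-8 and kinesin-9 with kinesin-11 counted 0. A limit of 1.2-fold in place of 1.5-fold, added after seeing the data, called 2 motor genes lower in place of 0. With the highest transcript in place of the sum, 3 of 18 genes with several transcripts moved: Dctn6 to -0.37, Dync1i1 to -0.44 and Dynlt1c to -0.35. For Dynlt1c the rows repeat the same RefSeq accession. None of 160 single gene ratios moved under the pseudocounts, rescaling or removal of small RNA rows, and thresholds cannot change a single ratio. Signs changed with the highest transcript for Dync1i1, Kif21a (-0.091) and Klc1 (0.055). Rescaling and the removal of small RNA rows shift all genes nearly alike, and ratios close to 0 changed sign with them: Dynll2 (0.004), Kif3a (0.005) and Kif1b (0.017 and 0.002). The median ratio of the motor genes ranged from -0.066 to -0.036. No paired analysis was possible because each group has 1 library and no replicate numbers. The counting error of genes near 3 TPM cannot be computed from TPM.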

Other observations

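Kif5a and Dctn2 are neighbours on chromosome 10, transcribed away from each other, with 3019 bases between the annotated genes. Kif5a was at 487.7 and 469.1 TPM and Dctn2 at 110.0 and 102.4 TPM (alum pool, then KLH pool).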
